A study of Oryctolagus cuniculus with 16 samples.

Results

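The short single-exon genes of the rabbit annotation were examined in RNA-seq of sorted brain cells: all genes outside the mitochondrion that have 1 exon entry and a length under 300 bases. The rule uses only the gene models and no measured value, and it took 3444 of the 23669 genes in the deposited files. The cells came from brains of New Zealand rabbits born prematurely, all with intraventricular haemorrhage, a bleed into the fluid-filled chambers of the brain that is common after preterm birth. All kits received an adenovirus into the lateral ventricle that expressed its cargo from the CMV promoter, which is not specific to a cell type. Kits of the Ad-PPARg groups received PPARg together with green fluorescent protein, and kits of the Ad-GFP groups received green fluorescent protein alone. PPARg is a ligand-bound transcription factor of lipid metabolism that also dampens inflammatory genes. Flow cytometry at day 7 gave microglia, the brain's own macrophages, as cells positive for CD11b with low CD45. It also gave oligodendrocyte progenitor cells (OPC), which later form myelin, as cells positive for O4. There were 4 libraries for each cell type and treatment, 16 in all, from 10 kits of which 6 gave both cell types. In such bulk samples fewer cells of a type and less RNA per cell cannot be told apart, and p-values rest on the spread between kits.

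Single-exon genes this short are, in most vertebrate annotations, largely genes of small noncoding RNAs. Small nuclear RNAs take part in splicing, small nucleolar RNAs guide the chemical modification of ribosomal RNA and are often cut out of the introns of a host transcript, and microRNAs are cut from hairpins and repress messenger RNAs. Short coding genes without introns and copies of coding genes also occur at these lengths. The files give no biotype. They name genes by Ensembl identifier and position alone, and 0 of the 3444 identifiers matched the 38822 genes of the reference table, so members are named here by position and the sorts could not be checked against marker genes. Positions are as the files give them, and the genome build is not given in the sources used here.

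Total counts on genes ranged from 6.24 to 17.6 M (mega) per library. The libraries differed in breadth. In each of the 4 groups, 1 library had far fewer genes at 0 than the rest: microglia Ad-PPARg replicate 1, microglia Ad-GFP replicate 2, OPC Ad-PPARg replicate 2 and OPC Ad-GFP replicate 3 had 2641 to 3231 genes at 0, against 4369 to 7899 in the other 12. These 4 libraries had a count on 1453 to 1739 short genes, and the other 12 on 575 to 1052. After exact rarefaction to 6.24 M counts the numbers were 923 to 1739 and 457 to 965, so that the 2 ranges met. The labels do not name a batch. They do give a first part of the kits' identifiers, with 6 values, 3 per treatment and none in both, whose meaning the labels do not state, so that it cannot be told apart from treatment.

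Lengths were taken in 3 bins: a first bin under 100 bases, a middle bin of 100 to under 170 and a long bin of 170 to under 300. Most short genes had few counts or none. Over the 16 libraries, 550 members had no count, 1887 had 1 to 9 and 1007 (29.2%) had at least 10. The longest ones were the most often counted. In the long bin, 233 of 422 members (55.2%) reached 10 counts, against 311 of 1045 (29.8%) in the first and 463 of 1977 (23.4%) in the middle bin. The most common single length was 107 bases, shared by 293 members, of which 40 reached 10 counts, and all 293 together had 1806 counts. The 3444 members together had 949416 counts, of which 44.5% lay in the first bin, 10.6% in the middle and 44.9% in the long bin.

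A large part of the counts under 100 bases came from 1 library. In microglia Ad-PPARg replicate 1, 3.77% of all counts fell on short genes (95% Wilson interval 3.76 to 3.79%, which covers counting error only). In the other 15 libraries the share ran from 0.278 to 0.663%, with a median of 0.359%. Without that library, 29.2% of the members' counts lay in the first bin, 13.3% in the middle and 57.5% in the long bin. Over these 15 libraries the long bin, 12.3% of the members by number, thus carried more counts than the other bins together.

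By library, the bin under 100 bases held 3.42, 0.0692, 0.0724 and 0.0635% of counts in microglia Ad-PPARg replicates 1 to 4 and 0.0711, 0.0947, 0.0740 and 0.156% in microglia Ad-GFP. In OPC it held 0.311, 0.143, 0.0762 and 0.143% after Ad-PPARg and 0.0816, 0.0823, 0.168 and 0.0739% after Ad-GFP. The ranges of the cell types overlapped, and the first library lay far above the other 3 of its group. The middle bin held 0.0462 to 0.0966% in microglia (median 0.0581%, n = 8) and 0.0315 to 0.0698% in OPC (median 0.0376%, n = 8). In the long bin the shares were 0.196 to 0.288% in microglia (median 0.229%) and 0.169 to 0.282% in OPC (median 0.182%). Both longer bins had the higher median in microglia with overlapping ranges, and no test was made of these sums. In the middle bin that order of the unscaled shares rests on 1 gene: without its most abundant member, at GL018713:310758-310910, the medians were 0.0293% in microglia and 0.0375% in OPC. Per M of the scaled library total, the bin had means of 739 in microglia and 350 in OPC, and this gene 328 and 2.09. By these means microglia stayed above OPC without the gene, so the turn depends on the scaling.

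**Figure D1:**
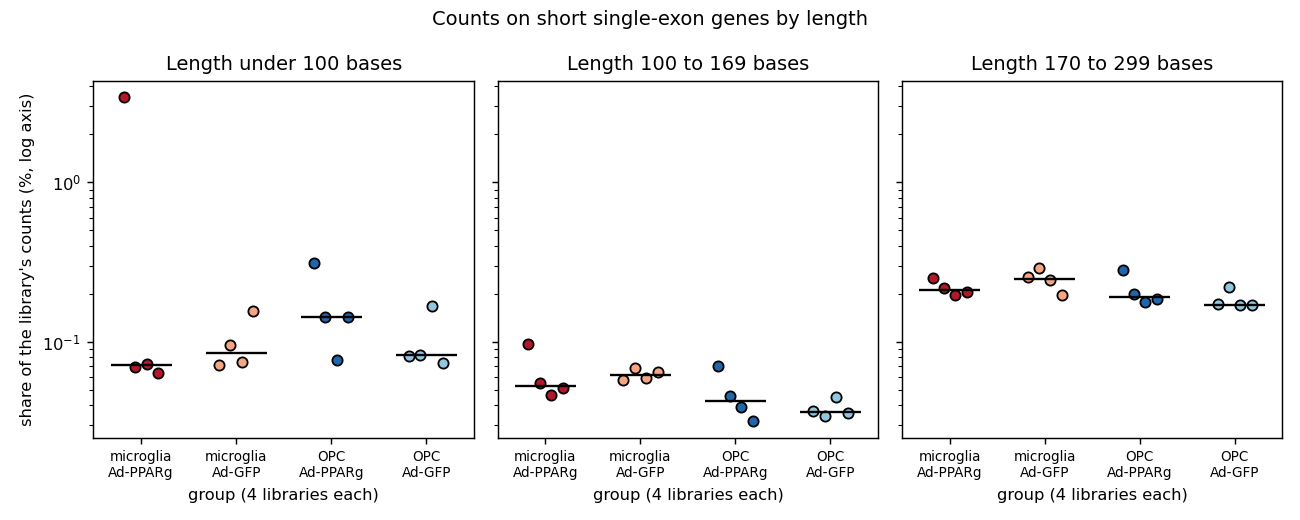
Share of each library's counts (percent, log axis) on short single-exon genes of 3 length bins, for the 4 groups of 4 libraries; points are libraries in replicate order and bars are group medians. Microglia Ad-PPARg replicate 1 stands at 3.42% under 100 bases, where the other 15 libraries lie between 0.0635 and 0.311%.

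The counts of the shortest bin were concentrated on a pair of scaffolds, singled out after their values were seen. GL019111 carries 18 members between 79709 and 170348, all on the minus strand, and no other gene, and GL019301 carries 4 members on the plus strand and no other gene. Their lengths were 74 to 153 bases. The 2 members with the highest mean CPM (counts per M of the scaled library total) of all 3444 were the 92-base genes at GL019111:164084-164175 and GL019111:94655-94746, which have the same length and may share reads. The gene at 164084 had 18847, 243, 240 and 242 CPM in microglia Ad-PPARg replicates 1 to 4 and 260, 349, 276 and 626 CPM in microglia Ad-GFP. In OPC it had 919, 315, 101 and 367 CPM after Ad-PPARg and 112, 123, 424 and 97.9 CPM after Ad-GFP. The second gene, at 94655, ran in parallel at 8537 CPM in that first library, 205 to 590 CPM in the other microglia libraries and 81.9 to 680 CPM in OPC, and a 74-base gene at GL019301:61172-61245 had 3077, 43.9 to 134 and 19.9 to 174 CPM. Replicate 1 of microglia Ad-PPARg was thus the highest library by far, and replicate 1 of OPC Ad-PPARg, from the same kit, was the highest OPC library.

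Summed over the 22 genes, 34311 CPM fell on these scaffolds in microglia Ad-PPARg replicate 1, which was 89.97% of its counts on short genes. The sum was 530 to 1460 CPM in the other 7 microglia libraries and 221 to 1990 CPM in the 8 OPC libraries. Without the 22 genes the share of counts on short genes in that library was 0.378%, inside the range of the other 15 (0.252 to 0.429%). The bin under 100 bases then summed to 230 to 528 CPM in microglia (median 294) and 367 to 706 CPM in OPC (median 409). In the other 7 microglia libraries this sum was 230 to 333 CPM, below the lowest OPC library. These sums were not tested. For 21 of the 22 members the highest of the 16 libraries was microglia Ad-PPARg replicate 1. Its high values were not confined to the 2 scaffolds. Of the 290 members that passed the filter on low counts used below, 37 (12.8%) had at least 4 times the median of the other 7 microglia libraries in it. Of these 37, 23 lay elsewhere, out of 276 tested members there. That share is near the 8.29% of all genes tested that were as high in this library. The same library was also high in the first 2 long mitochondrial genes, which had 12083 CPM in it by unscaled totals and 591 to 2988 CPM in the other 15. The part of the library itself in these values was not tested.

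Lengths gave a further view of what was counted. A coding length is a multiple of 3, and among single-exon genes of 300 bases or more 91.8% of the lengths were. Of the short genes, 62.3% of the long bin had such a length, 39.3% of the first bin and 28.6% of the middle bin. Weighted by counts, 96.6% of the counts in the long bin and 71.8% in the middle bin lay on members whose length is a multiple of 3, but 4.13% in the first bin. Without microglia Ad-PPARg replicate 1 these shares were 96.9, 72.0 and 7.56%. Among genes of 2 or more exon entries 57.9% of the lengths were multiples of 3. By chance alone 1 length in 3 is a multiple of 3. By number the members are mostly short genes of other lengths (36.0% multiples of 3, near that chance level). Such a length therefore does not mark a single member as coding. The counts in the longest bin lay almost wholly on genes whose length is a multiple of 3. Shares weighted by counts rest on few genes. The 10 most counted members held 86.1% of the counts in the first bin, 55.0% in the middle and 66.6% in the long bin. Nothing changed sharply at the limit of 300 bases: among genes of 280 to under 300 bases 62 of 107 genes (57.9%) had at least 10 counts, and among those of 300 to under 320 bases 95 of 166 (57.2%).

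The most abundant members outside the 2 scaffolds, by mean CPM, were mostly of the long bin. The 252-base gene at GL018934:30038-30289 had 427 to 1009 CPM in microglia (median 592) and 156 to 358 CPM in OPC (median 220). A 282-base gene at GL019770:1-282 had 264 to 449 CPM in microglia (median 393) and 153 to 243 CPM in OPC (median 187). The lowest microglia library of each lay above the highest OPC library. They differed by -1.43 (SE 0.19) and -1.02 (SE 0.13) on the log2 scale, OPC minus microglia, with edgeR adjusted p of 4.68e-06 and 2.29e-06. Likewise lower in OPC were the 213-base gene at chr5:1630617-1630829 (-1.17, SE 0.14, 126 to 268 CPM in microglia and 72.8 to 126 in OPC) and the 279-base gene at chr1:139135541-139135819 (-1.42, SE 0.18, 81.8 to 234 CPM in microglia and 34.2 to 76.9 in OPC). In the middle bin the 165-base gene at GL018729:1176369-1176533 had 20.2 to 63.5 CPM in microglia and 16.4 to 36.2 in OPC, ranges that overlapped (-0.89, SE 0.20).

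OPC and microglia were then compared gene by gene with edgeR over all 16 libraries and all genes. The filter on low counts let 290 of the 3444 members pass (8.42%). These 290 are the counted part of the members and not the members as a whole, since a gene that is high in 1 cell type alone can pass through it. The 3154 that did not pass held 2.91% of the members' counts, and 2604 of them had at least 1. Their summed level was 62.4 to 654 CPM in microglia (median 92.6) and 90.2 to 223 CPM in OPC (median 111), ranges that overlapped. Of the 290, 115 were higher in OPC and 67 lower at an adjusted p under 0.05, or 62.8% called, where 68.5% of all 14699 genes tested were called (35.1% higher and 33.4% lower). The share of these 290 called is thus near that of all genes. The median log2 difference was 0.46 over the 290 and -0.01 over all genes tested. That excess belongs to the members that passed the filter. Without the filter the medians were -0.20 over 2894 members and -0.21 over all 23003 genes. DESeq2, run without this filter, gave medians of -0.47 over 2871 members and -0.28 over 22937 genes.

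The median of 0.46 over the 290 hides different bins. In the first bin 55 of 112 tested members were higher in OPC and 23 lower (median 0.79), and in the middle bin 40 of 98 were higher and 14 lower (median 0.55). In the long bin 20 of 80 were higher and 30 lower (median -0.38). With library totals that were not scaled, the median of all genes moved to 0.51, the split of the 290 to 151 higher and 32 lower, and the long bin to 25 higher and 15 lower with a median of 0.16, so its direction depends on the scaling. Relative to the median of all genes, the median of that bin stayed below and that of the first bin above under the TMM, RLE and upper-quartile scalings and with unscaled totals. Of the 23 calls lower in OPC under 100 bases, 9 lay among the 14 tested genes of GL019111 and GL019301. Without microglia Ad-PPARg replicate 1 the 14 had 0 calls and the first bin had 57 higher and 12 lower. Differences between bins were not tested.

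**Figure D2:**
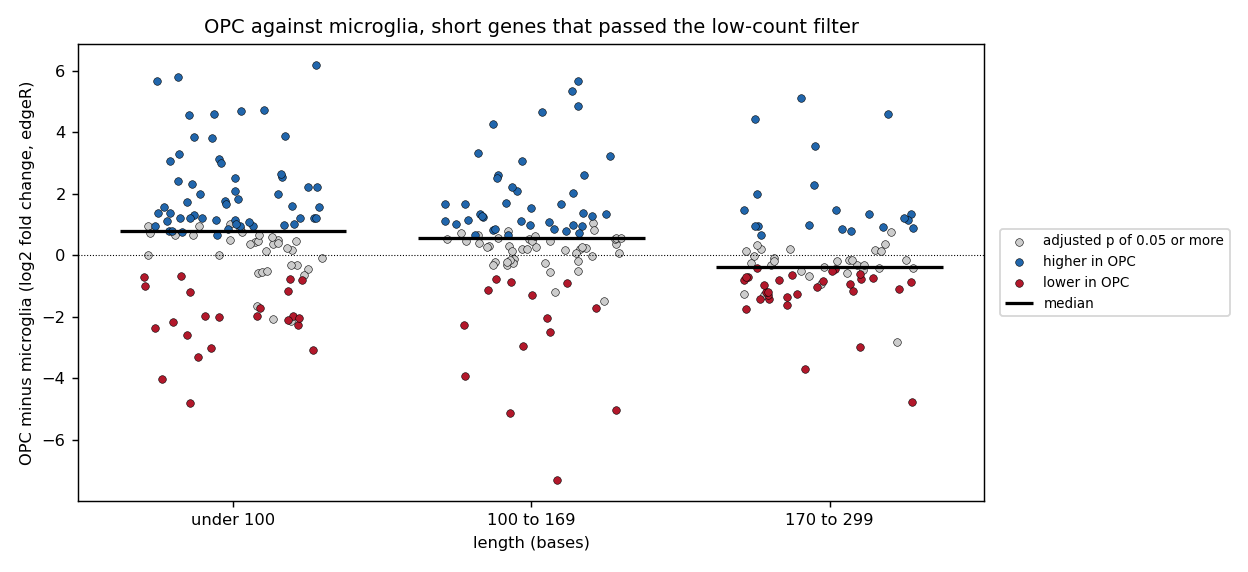
OPC minus microglia (edgeR log2 fold change over 8 libraries each) for the 290 short genes that passed the filter on low counts, by length bin; each point is a gene, spread sideways for legibility, coloured by direction where the adjusted p is under 0.05, and bars are medians. The medians are 0.79, 0.55 and -0.38 from the shortest to the longest bin.

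The members lower in OPC with the lowest p were far below their microglia levels in OPC. ENSOCUG00000015530, a 177-base gene at chr1:123426354-123426530, had 51.2, 77.8, 68.3 and 74.9 CPM in microglia Ad-PPARg and 76.9, 75.9, 82.7 and 61.7 CPM in microglia Ad-GFP. In the OPC libraries it had 1.797 to 3.72 CPM (mean 2.64 ± 0.696, SD, n = 8). The cell types did not overlap, and the difference was -4.76 on the log2 scale (SE 0.17, edgeR adjusted p = 1.94e-12). ENSOCUG00000021273, of 153 bases at GL018713:310758-310910, had 196.1, 308, 229 and 350 CPM in microglia Ad-PPARg and 366, 441, 425 and 307 CPM in microglia Ad-GFP. Its level in OPC was 0.835 to 5.43 CPM (median 1.57), which made it the member with the largest difference of the 290, -7.31 (SE 0.39, edgeR adjusted p = 9.08e-11).

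A further 4 members followed in the order of p. A 159-base gene at chr11:35603072-35603230 had 27.7 to 86.9 CPM in microglia (median 61.7) and 2.19 to 6.10 in OPC (median 3.71), a difference of -3.91. The 106-base gene at GL019596:23698-23803 had 3.07 to 12.0 CPM (median 8.01) and 0.0800 to 0.390 (median 0.208), a difference of -5.13. At chr1:123202436-123202516 an 81-base gene had 3.26 to 11.0 CPM (median 7.88) and 0.0653 to 0.596 (median 0.251), a difference of -4.82. None of these ranges overlapped. The 264-base gene at chr4:2717278-2717541 differed least, with 35.9 to 53.9 CPM against 16.4 to 23.5 CPM (-1.19, SE 0.10, edgeR adjusted p = 2.05e-08).

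Among members higher in OPC, ENSOCUG00000021823, a 96-base gene at the very start of its scaffold (GL019534:1-96), had 12.8, 9.21, 9.61 and 10.48 CPM in OPC Ad-PPARg and 12.4, 9.14, 13.7 and 11.0 CPM in OPC Ad-GFP. In microglia it had 0.418 to 1.25 CPM (median 0.738). The groups did not overlap, and OPC exceeded microglia by 3.83 on the log2 scale (SE 0.23, edgeR adjusted p = 3.38e-10). ENSOCUG00000023617, of 261 bases at chr16:36914647-36914907, had 11.1, 7.56, 8.71 and 12.5 CPM in OPC Ad-PPARg and 10.4, 9.34, 8.32 and 12.5 CPM in OPC Ad-GFP. Its microglia libraries had 0 to 0.890 CPM (median 0.449), a difference of 4.45 (SE 0.35, edgeR adjusted p = 8.63e-09).

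The next members in this direction were of 67 to 96 bases. A 79-base gene at chr14:77396005-77396083 had 29.1 to 197.9 CPM in OPC (median 53.1) and 0.192 to 3.29 in microglia (median 0.843), a difference of 5.81 (SE 0.50). Its highest value, 197.9 CPM, was OPC Ad-PPARg replicate 4, where the next Ad-PPARg library had 52.1 CPM. Genes of 96 bases at chr14:104895760-104895855 and of 92 bases at chr2:28491595-28491686 were higher by 3.31 (SE 0.28) and 4.58 (SE 0.41), with lowest OPC libraries of 4.31 and 5.08 CPM and highest microglia libraries of 1.28 and 0.735 CPM. The 67-base gene at chr19:19444470-19444536 was higher by 3.15 (SE 0.25), with 4.56 to 11.4 CPM in OPC and 0.420 to 0.972 in microglia. Each of the 12 members named in this comparison kept its direction and its call under all 27 alternatives.

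Short genes lie in runs along some chromosomes, and their counts differ between runs. Runs were taken as members no more than 50000 bases apart, a distance chosen after the files were seen, and 12 runs had at least 8 members. The longest run, 92 genes of 65 to 99 bases at chr17:80941452-81132745, had 392 counts in all, and 6 genes reached 10. Its neighbour at chr17:81219764-81303442 holds 30 genes of 67 to 94 bases, of which 24 reached 10 counts. The sum of these 30 was 5.84 to 14.1 CPM in OPC and 0.222 to 6.81 CPM in microglia, and the 3 that passed the filter were each higher in OPC (2.99 to 4.59 on the log2 scale). The run of 46 genes on GL019048 had 43 counts and no gene with 10.

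In other runs nearly all genes were counted. At chr13:1208683-1211932 lie 9 genes of 61 to 83 bases on the minus strand that all passed the filter. Their summed level was 23.5 to 75.1 CPM in microglia and 20.0 to 67.9 CPM in OPC, and all 9 had a lower estimate in OPC (-0.78 to -0.31), 2 of them past the threshold. The 10 genes at GL018717:1508156-1519100 lie on the plus strand. Of the 9 that passed the filter 8 had a higher estimate in OPC, and 3 were called (the run's estimates were -0.08 to 1.56). The run at chr1:123186091-123225178 has both directions. The first 8 genes, on the plus strand, were 0.56 to 1.35 higher in OPC and 7 were called, while the pair on the minus strand at chr1:123202169-123202238 and chr1:123202436-123202516 was lower by -4.01 and -4.82. This pair lies in a gene of 30 exon entries at chr1:123190701-123248675, itself 0.46 higher in OPC (SE 0.11).

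Position within other genes was taken next. A member was inside when its whole interval fell between the first and the last base of a gene that is no member: 1149 of 3444 (33.4%) were inside, 700 on the strand of that host gene and 449 on the other strand. Only 53 of the 1149 overlapped an exon of the host. Taken over all lengths, members on the host's strand were counted most often. In the median library 38.4% of same-strand members had a count (26.9 to 59.9% over 16 libraries), 23.6% of opposite-strand members (11.4 to 45.4%) and 23.7% of members outside (14.6 to 48.6%). The same-strand share was above both others in all 16 libraries, while the opposite-strand share was below the outside share in 11 of 16. Over all libraries together, 45% of same-strand members, 25.2% of opposite-strand members and 25.2% of outside members reached 10 counts. The long bin by itself had another order. In its median library 39.5% of 38 same-strand members had a count, 33.8% of 37 opposite-strand members and 43.7% of 347 outside members. There 47.4, 48.6 and 56.8% reached 10 counts.

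**Figure D3:**
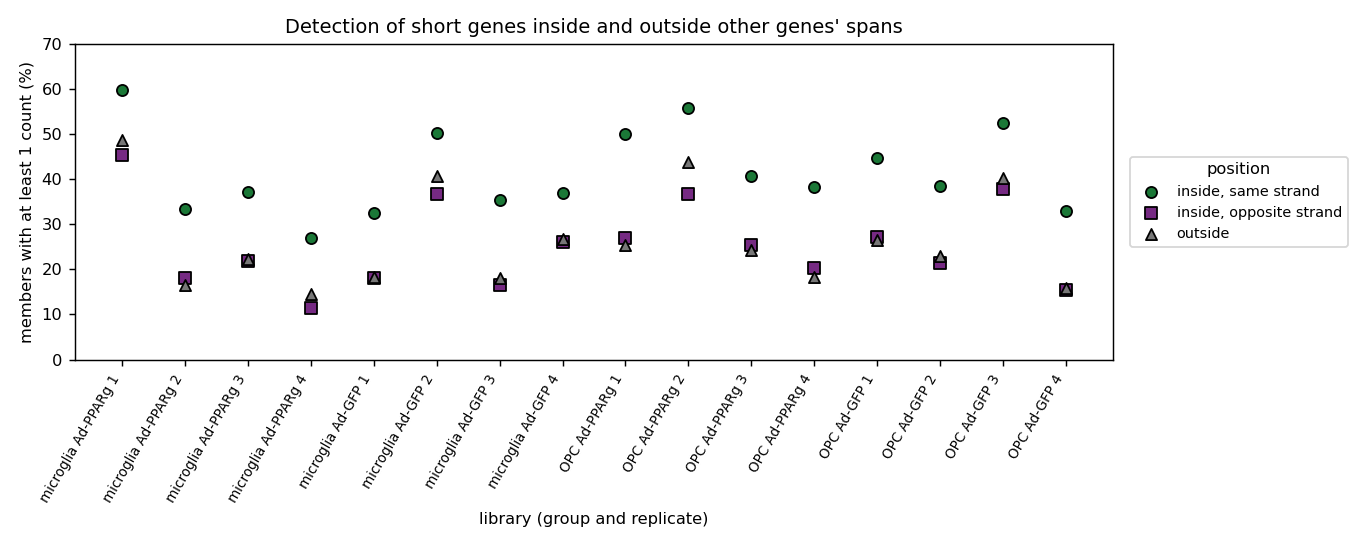
Percent of short genes with at least 1 count in each of the 16 libraries, all lengths together, for 700 genes inside another gene on its strand, 449 inside on the opposite strand and 2295 outside. The same-strand point is the highest of the 3 in every library, at 26.9 to 59.9%, and the opposite-strand and outside points lie close together.

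Per kilobase of length, genes inside had the higher median level in the 2 shorter bins, and the highest single levels lay outside. In the first bin the median of the mean level was 0.352 CPM per kb inside and 0.252 outside, and in the middle bin 0.296 and 0.132. In the long bin it was 0.230 inside and 0.286 outside. At the upper end the order differed by bin. The 95th percentile was 15.99 CPM per kb inside and 39.95 outside in the first bin, 5.55 and 2.38 in the middle bin, and 2.09 and 123 in the long bin. No inside member of any length had a mean over 10 CPM, against 53 outside. Inside members held 4.38% of the members' counts. Since reads of 150 bases are longer than the genes of the first bin, levels per kilobase are compared here within a bin only. Of the 57 members that overlapped an exon of another gene, 48 (84.2%) had no count at all, where 14.8% of the others had none. Whether counting used strand is not stated in the sources used here, so it is not known how reads of overlapping genes were placed.

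The members with the highest mean CPM inside a host on its strand were a 143-base gene at chr19:11601908-11602050 (4.13 to 11.2 CPM in microglia and 3.20 to 18.1 in OPC), a 133-base gene at chr10:45231318-45231450 (0.907 to 8.29 and 2.61 to 8.70 CPM) and an 86-base gene at chr4:9684754-9684839 (0.604 to 2.03 and 5.202 to 11.8 CPM). The first pair had overlapping cell types and was not called, and the last was higher in OPC by 2.52 (SE 0.27, edgeR adjusted p = 3.00e-07). On the opposite strand the highest was a 101-base gene at chr17:28549192-28549292, with 2.04 to 5.02 CPM in microglia and 2.01 to 5.07 in OPC. Next came a 149-base gene at GL018717:1672488-1672636, with 0.756 to 1.83 and 1.56 to 8.46 CPM (1.37, SE 0.35, edgeR adjusted p = 0.00212). The 141-base gene at chr14:96665857-96665997 had 0.338 to 1.71 and 0.390 to 1.97 CPM and was not called.

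The level of the host went with that of the member on its strand. Of same-strand members clear of host exons, 2 of 34 (5.88%) reached 10 counts where the host had a mean under 1 CPM, 10 of 87 (11.5%) at 1 to 10 CPM, 144 of 342 (42.1%) at 10 to 100 CPM and 159 of 216 (73.6%) at 100 CPM or more. For members on the opposite strand the shares were 6.25, 16.1, 32.1 and 37.5%. These are counts over genes, several of which share a host, and were not tested.

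The difference between the cell types was then set beside that of the host. Of the 290 tested members 92 lay inside 66 hosts, all of which were tested too. For 44 of the 92 (47.8%) member and host had the same sign of difference. Of the 92, 39 were called higher in OPC and 7 lower, or 50% called. Of the outside members tested 76 were higher and 60 lower, or 68.7%, beside 68.5% of all genes (35.1% higher and 33.4% lower). Among 42 cases in which both were called, both were higher in 12, both lower in 4, the member higher and the host lower in 24, and the member lower and the host higher in 2. The median difference was 0.66 for the 92 members and -0.50 for their hosts. In 72 of 92 the member's difference lay above that of its host, a count that was 72 under each of the 4 scalings, since a factor per library moves both alike. With the kit as a block it was 55 of 65. All these members had passed the filter on low counts, which a gene high in 1 cell type alone can pass. The counts therefore describe such members and not all members inside hosts, and the part of the filter in them was not tested. Across the 86 same-strand members Pearson's r was 0.416 and Spearman's rho 0.0951, a description over genes that share libraries and hosts.

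**Figure D4:**
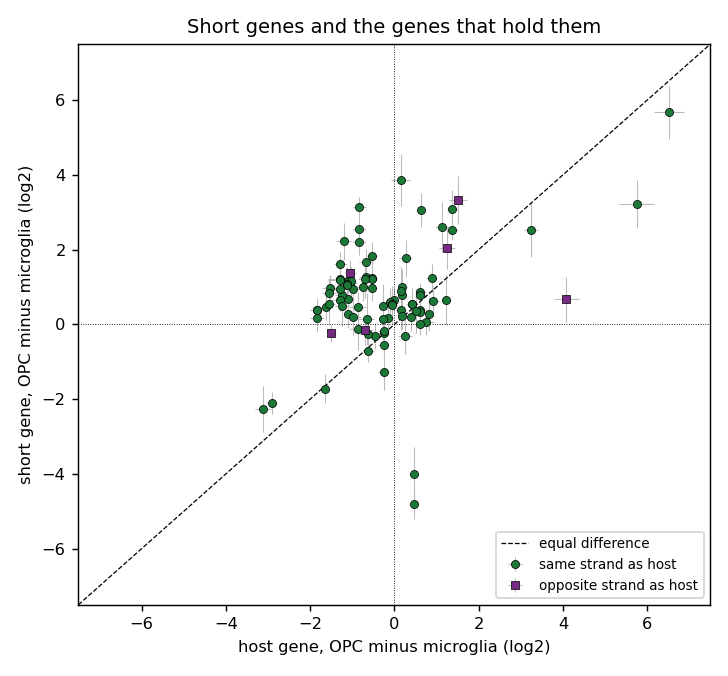
OPC minus microglia (edgeR log2 fold change) of 92 short genes against that of the gene that holds them, with standard errors as grey bars; circles are members on the host's strand and squares on the opposite strand, and the dashed line marks equal differences. Of the 92 points, 72 lie above the line, and the 24 with a member called higher and its host called lower stand in the upper left. Only members that passed the filter on low counts are shown.

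The 6 hosts with at least 3 tested members, chosen after their values were seen, were of several kinds. The gene at chr19:19442423-19445065 has 3 tested members of 65 to 72 bases on its strand, each higher in OPC by 2.21 to 3.15, while the host was lower by -0.83 (SE 0.16, 976 ± 264 CPM in microglia and 545 ± 93.0 in OPC, SD, n = 8 each). In the gene at chr17:5896994-5901066, 4 members were higher by 0.97 to 1.82 and the host lower by -0.52 (SE 0.12). In that at chr9:90425916-90429075, 4 members had estimates of 0.66 to 1.22, 2 of them called, and the host was lower by -1.30 (SE 0.29). In the gene at chr12:123075000-123078772, 3 members had estimates of 0.17 to 0.39 and 0 were called, and the host was lower by -1.83 (SE 0.16). In the other pair member and host had the same sign. The gene at chr14:78838991-78845089, with the most tested members, was higher by 0.62 (SE 0.14), and its 5 members had estimates of 0.0047 to 0.86, 2 of them called. The gene at chr19:11601528-11606681 had an estimate of -0.25 (SE 0.13), and its 4 members -1.28 to -0.19, of which 1 was called.

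Treatment with Ad-PPARg was compared with Ad-GFP within each cell type. In microglia 5.72% of the members passed the filter on low counts and 0 were called (edgeR, lowest adjusted p = 0.409), as were 0 (0%) of all 13041 genes. DESeq2 called 0 members higher and 1 lower, against 0.214% of all 22425 genes higher and 0.232% lower (0.446% together). At an unadjusted edgeR p under 0.05, 6 members were higher after Ad-PPARg and 18 lower (12.2% together), against 11.4% of all genes (4.87% higher and 6.54% lower), which is near the background. With 1 library left out the counts ran from 2 to 13 higher and 12 to 25 lower, with 2 and 12 without Ad-GFP replicate 2 or 3, 13 and 25 without Ad-GFP replicate 4, 12 and 16 without Ad-PPARg replicate 4, and 3 and 21 without Ad-PPARg replicate 1. Of the 18, 16 were among the 68 tested members of the long bin, a larger share than the 6.54% of all genes, and this was not tested. The median log2 difference of the tested members was 0.18, against 0.03 over all genes, and -0.04 without Ad-PPARg replicate 1, the library that stands apart under 100 bases.

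The members of lowest p in microglia did not pass the threshold. The 216-base gene at chr15:66657334-66657549 had 65.3, 78.5, 63.7 and 71.5 CPM after Ad-PPARg and 107, 111, 104 and 72.9 CPM after Ad-GFP, so that 1 Ad-GFP library lay inside the Ad-PPARg range (-0.51, SE 0.13, edgeR adjusted p = 0.409). A 240-base gene at GL018803:179133-179372 had 24.5, 31.7, 20.9 and 23.1 CPM against 53.7, 72.8, 49.0 and 26.4 CPM (-1.02, SE 0.26, edgeR adjusted p = 0.409). It was the member that DESeq2 called. In the other direction a 72-base gene at chr12:123075697-123075768 had 2.75, 2.85, 1.81 and 2.52 CPM after Ad-PPARg and 1.25, 0.982, 1.11 and 0.846 CPM after Ad-GFP, with no overlap (1.22, SE 0.38, edgeR adjusted p = 0.409). The gene at chr4:2717278-2717541 differed by 0.28 (SE 0.11, edgeR adjusted p = 0.421).

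In OPC 267 members were tested and 0 were called by edgeR, as were 0 (0%) of 13492 genes, with every adjusted p near 1. DESeq2 called 1 member higher, the gene at AAGW02081404:24130-24426 described last, and 0 lower, against 7 (0.0314%) of all 22318 genes, all higher. At an unadjusted edgeR p under 0.05, 9 members were higher after Ad-PPARg and 0 lower (3.37%), where 1.23% of all genes passed (0.763% higher and 0.467% lower). The count depends on single libraries: 17 were higher without Ad-PPARg replicate 2, 20 without replicate 3 and 29 (with 2 lower) without replicate 4, and 6 to 12 (with at most 1 lower) without any other. The median difference of the 267 was 0.32 against 0.03 over all genes, and 0.09 without OPC Ad-PPARg replicate 1. Toward lower values the first were a gene at GL019531:2090-2287 (-0.52, SE 0.32, 1.92 to 4.63 CPM after Ad-PPARg and 4.47 to 6.56 after Ad-GFP) and a 231-base gene on X at chrX:17906070-17906300 (-0.71, SE 0.48, 0.3201 to 1.59 and 0.876 to 1.82 CPM). Both pairs of ranges overlapped.

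Whether treatment acted differently in OPC and microglia was tested as an interaction, and 0 of 290 members and 0 (0%) of 14699 genes were called by edgeR. DESeq2 called 0 members, and 2 (0.00872%) of all 22937 genes. At an unadjusted edgeR p under 0.05, 3 members had a positive interaction (OPC effect minus microglia effect) and 1 a negative one (1.38%, against 2.73% of all genes, 1.2% positive and 1.53% negative). With 1 library left out these counts ran from 0 to 13 and from 1 to 4. The members of lowest p here were the X-linked gene just named (-4.13, SE 1.34), an 81-base gene at GL018843:203288-203368 (-2.05, SE 1.06), a 264-base gene at chr1:142636280-142636543 (0.81, SE 0.37) and a gene on scaffold AAGW02081404 (6.51, SE 2.93), each at an edgeR adjusted p of 0.997. The X-linked gene had 0 CPM in all 4 microglia Ad-GFP libraries and 0 to 0.165 CPM in microglia Ad-PPARg, so its estimate depends on the prior count.

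Both members of lowest p toward higher values in OPC lie on AAGW02081404, and their high values occurred in kits of both treatments. The 297-base gene at AAGW02081404:24130-24426, on the minus strand, had 411, 2.01, 1.94 and 531 CPM in OPC Ad-PPARg replicates 1 to 4 and 1.77, 1.44, 1.93 and 3.25 CPM in OPC Ad-GFP (6.84, SE 1.79, edgeR adjusted p = 1.00). In microglia it had 377, 322, 2.39 and 2.63 CPM after Ad-PPARg and 545, 2.57, 2.74 and 1.86 CPM after Ad-GFP. The 5 high libraries, 322 to 545 CPM, were all those of kits whose identifiers begin with K188, K196 or K193, and the other 11 libraries had 1.44 to 3.25 CPM. The first 2 of these beginnings are Ad-PPARg kits and the third is an Ad-GFP kit.

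These 5 libraries also stood apart in the mitochondrion. The 10 longer mitochondrial genes after position 7000 summed to 50.9 to 107 CPM in them and to 8696 to 19476 CPM in the other 11. A gene of 2 exon entries next to the member, starting at 27532 on the same scaffold, moved with it (1126 to 2312 CPM in the 5 and 3.78 to 11.8 CPM in the 11). The second member on the scaffold, also of 297 bases, at AAGW02081404:6590-6886, had 1.51 to 2.80 CPM in the 5 and 0.131 to 1.18 CPM in the 11. Between the treatments in OPC it differed by 2.05 (SE 0.63, edgeR adjusted p = 1.00). The part of the mitochondrial genes in these values was not tested, and kits with the same beginning were never split between treatments.

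**Figure D5:**
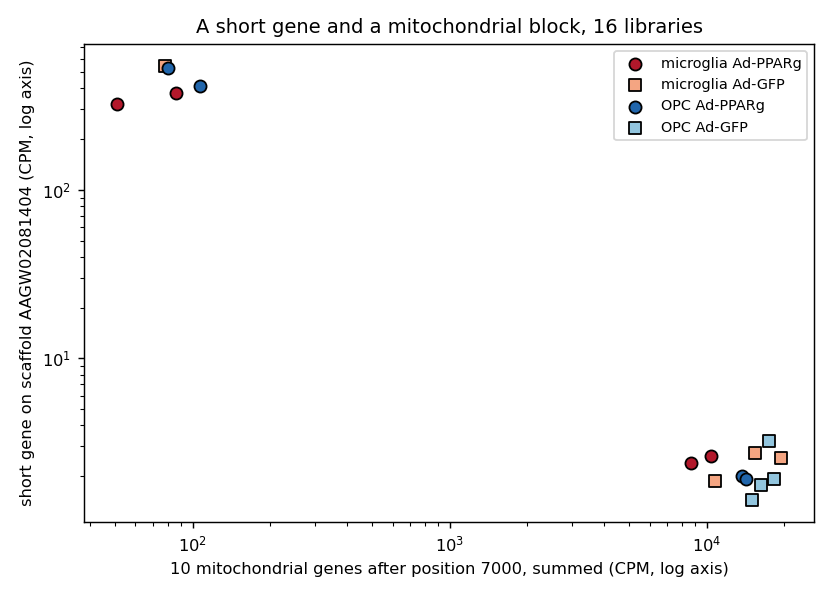
Level of the more abundant 297-base gene on scaffold AAGW02081404 (CPM, log axis) against the summed level of 10 mitochondrial genes after position 7000 (counts per M of the unscaled total, log axis), 1 point per library. The 5 libraries with 50.9 to 107 CPM on the mitochondrial block have 322 to 545 CPM on the short gene, and the other 11 have 1.44 to 3.25 CPM.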

How the data were processed

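RNA of sorted microglia and OPC was read as pairs of 150 bases, per the labels' protocols. Subread 1.5.2, STAR 2.5.2b and bcl2fastq 2.17 appear in the submitters' processing notes with no role given. Build, annotation and the use of strand: not given in the sources used here. The authors deposited whole-number read counts per gene, not normalized, 1 file per library.

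Members and lists were chosen with earlier results of these data known. Counts were fitted over all genes with edgeR 4.0.16 in R 4.3.3 (filterByExpr by group, TMM scaling, robust quasi-likelihood test, Benjamini-Hochberg over all genes tested, threshold 0.05). OPC against microglia and the interaction used all 16 libraries, and each treatment comparison the 8 of its cell type. CPM are counts relative to TMM-scaled totals, per mega-count, and shares are of unscaled totals. Members were named by rule: the 10 of highest mean CPM, the 6 of lowest p in each direction between the cell types, the 2 of lowest p in each direction for treatment and the interaction, and the 3 of highest mean CPM in each bin and position. The scaffolds, runs and hosts described outside this rule were chosen after their values were seen. Alternatives were DESeq2 1.42.0, other scalings and filters, libraries left out, kits as blocks and counts summed per identifier beginning. The fits were tested on simulated data, with changes planted only in genes above a minimum level. Of 2-fold changes edgeR recovered 77% between the cell types, 62% for treatment in microglia, 30% in OPC and 12% for the interaction. Of 4-fold changes it recovered 96, 92, 93 and 56%. For treatment, members had a larger median SE than all genes (0.43 against 0.20 in microglia, 0.41 against 0.25 in OPC). The 0 calls for treatment and the interaction therefore do not show that no member changed. Replicates are different kits. Chi-square per gene was 6.57 to 211 over the 24 pairs within groups, so no library was taken as a repeat. The 6 kits with both cell types pair them by label. Their deviations from group means correlated at -0.12 to 0.27 over the 14699 genes.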

Additional observations from a re-analysis of the deposited data

Results flagged for a closer look

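In 160 groups of 4 libraries (named members and shares by length bin), 23 values stood farther from the rest of their group than Dixon's critical value allows, where chance gives about 1 in 20. The members share libraries and are not independent. Of the 23, 6 come from microglia Ad-PPARg replicate 1 and 6 from OPC Ad-PPARg replicate 1, which are the same kit.

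Microglia Ad-PPARg replicate 1 was high in the share of counts under 100 bases (3.42%, next 0.0724%) and in the middle bin of 100 to under 170 (0.0966%, next 0.0547%). It was also high in the genes at GL019111:164084-164175 (18847 CPM, next 243), GL019111:94655-94746 (8537 CPM, next 216), GL019301:61172-61245 (3077 CPM, next 58.1) and GL019111:92675-92766 (2221 CPM, next 6.42).

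OPC Ad-PPARg replicate 1 was high in the gene at GL019111:92675-92766 (64.3 CPM, next 4.88), in that at chr5:1630617-1630829 (126 CPM, next 79.6) and in 4 genes inside hosts: chr12:123075697-123075768 (4.77 CPM, next 2.01), chr19:11601908-11602050 (18.1 CPM, next 5.14), chr10:45231318-45231450 (8.70 CPM, next 4.29) and GL018717:1672488-1672636 (8.46 CPM, next 2.48).

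OPC Ad-GFP replicate 3 was high under 100 bases (0.168%, next 0.0823%) and in the genes at GL019111:164084-164175 (424 CPM, next 123) and GL019111:94655-94746 (323 CPM, next 111). OPC Ad-GFP replicate 2 was high in the long bin of 170 to under 300 (0.221%, next 0.172%) and in the genes at GL018934:30038-30289 (332 CPM, next 222) and GL018803:179133-179372 (36.1 CPM, next 19.5).

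In microglia Ad-GFP, replicate 1 was high in both genes of AAGW02081404 (545 CPM, next 2.74, and 2.498 CPM, next 1.06), and replicate 4 in the gene at GL019111:92675-92766 (14.7 CPM, next 5.14). The gene at chr14:77396005-77396083 was high in OPC Ad-PPARg replicate 4 (197.9 CPM, next 52.1) and in microglia Ad-PPARg replicate 3 (3.29 CPM, next 0.840).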

How the results depend on the processing

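The 115 members higher and 67 lower in OPC became 105 to 124 and 53 to 79 when single libraries were left out, 98 and 58 in the paired fit with the kit as a replicate block (12 libraries, 244 members tested; of 158 called members tested there, 144 kept their call and direction) and 60 and 25 in the Ad-PPARg libraries only. Without a filter 277 were called, 108 of them lower, and 119 of the 277 were members that the filter had removed; DESeq2 called 262, of which 85 were such members; with unscaled totals 32 were lower. In the treatment comparisons DESeq2 called 1 member lower in microglia and 1 higher in OPC; every other setting, kits summed by identifier beginning included, called 0. Without the most abundant gene of the bin, the median microglia share of unscaled totals was 0.0293% in the middle bin, below that of OPC, and 0.174% in the long bin. The median library's excess of members counted inside over outside, 8.76 percentage points, became 0.161 among members with at least 10 counts. Members inside on the same strand, set against all other members, outside or inside, had an excess of 15.1 percentage points.

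Differences between the cell types that changed sign were, without microglia Ad-PPARg replicate 1, that at GL019111:92675-92766 (range -4.31 to 0.34 over libraries left out; 0.14 without the 4 libraries with few genes at 0), and, not called to begin with, those at AAGW02081404:24130-24426 (-3.28 to 0.0844 over libraries left out, the highest without microglia Ad-GFP replicate 1; 0.40 in Ad-PPARg libraries) and AAGW02081404:6590-6886 (0.38 in Ad-PPARg libraries). Inside hosts they were chr19:11601908-11602050 (0.31 unscaled, 0.0158 without the 4 libraries), chr10:45231318-45231450 (0.20 unscaled), chr17:28549192-28549292 (0.27 unscaled) and chr14:96665857-96665997 (0.0265 upper-quartile, 0.35 unscaled, 0.11 without the 4 libraries, 0.33 in Ad-PPARg libraries). Unscaled totals and leaving out the 4 libraries were chosen after seeing the data. The causes were not tested. Differences of genes with under about 1 CPM are limited by counting.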
